A study of Mus musculus with 12 samples.

Results

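The SLIT ligands (Slit1, Slit2, Slit3), the ROBO receptors (Robo1, Robo2, Robo3, Robo4) and the srGAP proteins that bind ROBO receptors inside the cell (Srgap1, Srgap2, Srgap3) were described in mouse hearts. The members were the 10 rows whose gene symbol in the deposited tables was one of these names, of 52858 genes in all. RNA was measured in 12 heart libraries, 3 in each of 4 groups. Hearts of C57BL/6J mice made up the groups C57-non-IR and C57-IR. Hearts of Slit2-Tg mice, which overexpress Slit2, made up Slit2-non-IR and Slit2-IR. Per the study's methods the mice were adult males, and the isolated perfused hearts either went through no-flow global ischemia followed by reperfusion (IR) or were perfused without it (non-IR). The transgene was a full-length human SLIT2 cDNA driven by the CMV promoter, first injected into C57 × CBA oocytes, and heterozygous mice were screened for. The CMV promoter is not specific to a cell type, and C57BL/6J is named as the background strain. The human cDNA has no row of its own in these mouse tables, so the mouse Slit2 row is no check of the transgene. The labels name the genotype, whereas IR or non-IR was read from the letters of the sample titles against the 4 groups of the methods.

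SLITs are large secreted glycoproteins that bind the extracellular part of ROBO receptors, with heparan sulfate chains of glypicans and syndecans as part of the complex. Inside the cell, ROBO1 and ROBO2 recruit srGAP proteins, which switch off small GTPases, and adaptors that act on actin. The pathway is best known for steering axons away from the midline, and ROBO4, which lacks part of the extracellular domain of the other receptors, is known from endothelial cells.

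Between 16601154 and 24841291 reads per library lay on genes. The IR labels were checked with stress genes. Hspa1b, an inducible HSP70 gene, was at 3.12 to 11.9 FPKM in the 6 non-IR libraries and at 380 to 891 FPKM in the 6 IR libraries, and Atf3, a stress transcription factor, was at 45.9 to 78.4 and 242 to 656 FPKM. Fos overlapped between non-IR and IR libraries, whereas Egr1, at 66.4 to 149 and 200 to 431 FPKM, did not. FPKM is here the read count of a gene divided by its length and by a scaling factor of the library, described under the processing. In whole hearts, fewer cells of a type and less RNA per cell cannot be told apart. Cardiomyocyte, endothelial and fibroblast markers were present in every library. Lung markers summed to 5.72 to 12.4 FPKM in 5 libraries (replicates 2 and 3 of C57-non-IR and of C57-IR, and Slit2-non-IR replicate 2) and to at most 0.279 in the other 7. Atrial markers summed to 1706 FPKM in Slit2-IR replicate 1 and to 32.1 to 245 FPKM in the other libraries.

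One member of each family carried most of its signal. Robo4 was the highest of the 10, with a mean of 10.6 FPKM over the 12 libraries (range 7.20 to 16.2), and made up 92.5% to 97.4% of the summed ROBO FPKM in a library. Slit3 followed at 3.50 FPKM (2.02 to 6.19) and made up 86.3% to 96.8% of the SLIT sum. Srgap2 came next at 2.41 FPKM (2.06 to 2.84) and made up 79.3% to 89.7% of the srGAP sum. The same member led its family in each of the 12 libraries.

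The other 7 members lay below 1 FPKM in every library. Robo1 averaged 0.411 FPKM, Srgap1 0.336, Slit2 0.242, Srgap3 0.118, Robo2 0.0910, Slit1 0.0463 and Robo3 0.0107. Most neighbours in this order overlapped. Robo4 lay above Slit3, Srgap2 above Robo1 and Slit1 above Robo3 with no overlap of their ranges, whereas Slit3 exceeded Srgap2 in 11 of 12 libraries, Robo1 exceeded Srgap1 in 9, Srgap1 exceeded Slit2 in 11, Slit2 exceeded Srgap3 in 10, Srgap3 exceeded Robo2 in 9 and Robo2 exceeded Slit1 in 10.

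The levels of Slit2 and Robo2 depend on the gene length that enters FPKM. The tables give Slit2 a length of 25433 bases and Slit3 6067. The longest coding transcripts in GENCODE M21 are 9960 bases for Slit2 and 5228 for Slit3. Recomputed on the length of the longest coding transcript, the mean FPKM was 0.618 for Slit2, 0.411 for Robo1, 0.395 for Srgap1 and 0.175 for Robo2, so that Slit2 moved ahead of Robo1 and Srgap1 but stayed below Slit3 at 4.07 and Srgap2 at 3.78. Robo4, at 11.4, stayed first. All reads of a gene were kept, also any outside that transcript, so the recomputed values are upper bounds. The Slit2 mean of 0.242 on the deposited length includes 1 library at 0.813, against a median of 0.184 over the 12 libraries.

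**Figure D1:**
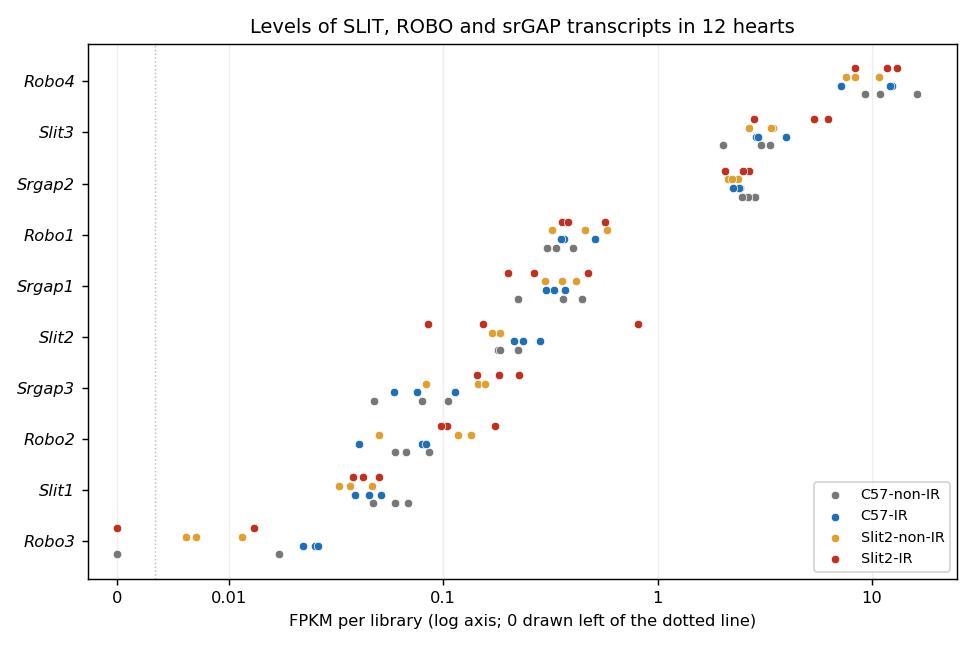
FPKM of the 10 members (log axis) in each of the 12 libraries, 1 point per library, coloured by group; values of 0 are drawn left of the dotted line. Robo4 lies between 7.20 and 16.2, Slit3 and Srgap2 between 2.02 and 6.19, and the other 7 members below 1.

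Slit2 and Slit3 each carry a copy of the same microRNA, in the intron of the same number. Mir218-1 lies in intron 14 of the longest coding transcript of Slit2, and Mir218-2 in intron 14 of that of Slit3, each of 35 introns. Both give rise to mmu-miR-218-5p, which is shown because it lies inside both ligand genes whose levels are compared between groups below. The sequence is from RefSeq (GRCm38.p6, chr5:48223966-48223986 and chr11:35616840-35616860, both on the plus strand, as are the host genes), with the seed, bases 2 to 8, in capitals.
mmu-miR-218-5p: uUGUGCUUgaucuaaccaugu
The rows of Mir218-1 and Mir218-2 held 0 reads in all 12 libraries, which were made to measure longer RNA, so these tables say nothing of the mature microRNA.

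Robo4 and Robo3 are neighbours that end facing each other on chromosome 9. Robo4 spans chr9:37401897-37415115 on the plus strand and Robo3 chr9:37415669-37433246 on the minus strand, with 553 bases between them. Over the 12 libraries Robo4 collected 14184 reads and Robo3 18. Their promoters, the 250 bases before the start site in RefSeq (GRCm38.p6), are shown because these adjacent genes stood first and last in level. The RefSeq start sites differ from the starts of the spans given above, so both windows run into those spans. Every GGAA on either strand (read as GGAA or TTCC), the core of the sites that ETS factors bind, is in capitals.
Robo4 (chr9:37401722-37401971, plus strand): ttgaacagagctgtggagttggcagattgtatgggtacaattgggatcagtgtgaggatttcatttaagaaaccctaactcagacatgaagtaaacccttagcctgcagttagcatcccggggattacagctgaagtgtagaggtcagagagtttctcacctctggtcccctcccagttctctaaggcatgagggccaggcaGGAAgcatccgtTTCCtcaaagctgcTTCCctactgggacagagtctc
Robo3 (chr9:37433176-37433425, minus strand): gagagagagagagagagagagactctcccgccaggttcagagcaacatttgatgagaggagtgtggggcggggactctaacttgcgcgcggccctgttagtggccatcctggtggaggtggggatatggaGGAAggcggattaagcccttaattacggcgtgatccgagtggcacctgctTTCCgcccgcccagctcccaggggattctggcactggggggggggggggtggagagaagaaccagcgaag
The Robo4 window held 3 GGAA cores, all inside the Robo4 span given above, and the Robo3 window 2. At least 3 were found in 54.7% of 32851 promoter windows of that length, and at least 2 in 76.8%. G and C made up 49.6% of the Robo4 window and 61.2% of the Robo3 window.

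Group differences were tested with limma on log2(FPKM + 1) over all 12 libraries. The scale compresses differences of genes far below 1 FPKM, so for the members below 1 FPKM the difference on recovered reads (limma-voom, log2 scale of reads) is given too. Of the 10 members, 8 passed the filter on low values, and Slit1 (4 to 7 reads in a library) and Robo3 (0 to 4 reads) did not. No member reached an adjusted p under 0.05 (limma, Benjamini-Hochberg over 15240 genes) in any comparison. Across all genes tested, 0.0394% passed in Slit2-non-IR versus C57-non-IR hearts, 0.0459% in Slit2-IR versus C57-IR, 0.459% in C57-IR versus C57-non-IR and 0.525% in Slit2-IR versus Slit2-non-IR (80 genes, or 202 with a replicate block). The mean genotype difference over both perfusion states passed for 0.131% of all genes, the mean IR difference over both genotypes for 3.49% and the interaction of genotype and IR for 0.0%. At an unadjusted p under 0.05, 1 member (Srgap3) passed in Slit2-IR versus C57-IR, where 3.16% of all genes did, and by limma-voom 2 members did (Srgap3 and Robo2), with 2.87% of all genes. In the other pairs of groups no member passed at that level by limma, where 3.19% (Slit2-non-IR versus C57-non-IR), 8.96% (C57-IR versus C57-non-IR) and 11.2% (Slit2-IR versus Slit2-non-IR) of all genes did. The mean genotype difference passed for 1 member, again Srgap3, and for 4.13% of all genes, whereas the mean IR difference and the interaction passed for no member and for 15.9% and 1.86% of all genes. The interaction had unadjusted p of 0.157 (Srgap2) to 0.690 (Srgap1) over the 8 members. The comparisons share libraries and are not independent of each other.

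The 3 libraries of one group lay all above or all below those of the other for few of the 8 tested members. This held for 1 of them in Slit2-non-IR versus C57-non-IR (9.2% of all genes), 2 in Slit2-IR versus C57-IR (6.47%), 1 in C57-IR versus C57-non-IR (13.8%) and 0 in Slit2-IR versus Slit2-non-IR (16.9%). These were Srgap2, then Robo2 and Srgap3, then Srgap2 again, with values given below. Slit1 and Robo3, which were not tested, did not overlap in some comparisons either, on 0 to 7 reads in a library.

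**Figure D2:**
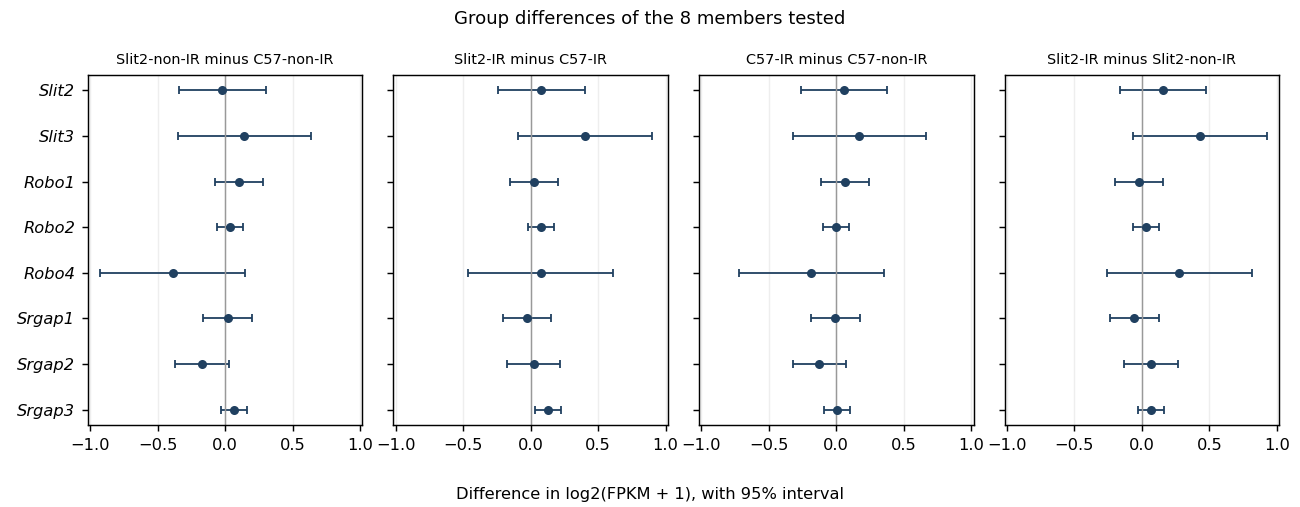
Differences in log2(FPKM + 1) of the 8 tested members in 4 comparisons, 1 panel each; points are limma estimates and bars 95% intervals. Every interval holds 0 except that of Srgap3 in Slit2-IR minus C57-IR, 0.03 to 0.23, which did not pass the adjusted threshold.

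Among the ligands, mouse Slit2 (chr5:47983138-48307733, GRCm38, plus strand) was at 0.180, 0.222 and 0.184 FPKM in C57-non-IR hearts and at 0.282, 0.235 and 0.213 in C57-IR hearts. In Slit2-non-IR hearts it was at 0.182, 0.184 and 0.169 FPKM, and in Slit2-IR hearts at 0.153, 0.813 and 0.0847. The groups overlapped, and Slit2-IR replicate 2 stood apart from the other 11 libraries, with 498 reads against 48 to 125. Its Slit2 level was 2.89 times that of the next highest library. Among 10616 genes with at least 100 reads in that library, this excess over the highest other library was the 2nd largest, after Drd2, a dopamine receptor gene chosen here after its value was seen. The library was picked by its Slit2 value and the genes by their reads in it, so the rank is a description and no test. The 7 genes that overlap Slit2 in the tables held 1 read in all libraries together.

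That library set the direction of the Slit2 comparison. Slit2-IR minus C57-IR was 0.08 on the log2(FPKM + 1) scale with all libraries (SE 0.15, 95% interval -0.24 to 0.40, adjusted p = 0.9996 by limma). It was -0.15 without Slit2-IR replicate 2. Without the transgenic library that stands apart, the mean genotype difference over both perfusion states was likewise -0.09, against 0.03 with it. That library was picked by its own Slit2 value, so no p is given for Slit2 without it. Slit2-non-IR minus C57-non-IR was -0.02 (95% interval -0.34 to 0.30). C57-IR minus C57-non-IR was 0.06 (-0.26 to 0.38). On the recovered reads the differences of Slit2 in the 4 pairs of groups lay between -0.14 and 0.35, with SEs of 0.58 to 0.63 and unadjusted p of 0.574 to 0.892 (limma-voom).

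Slit3 (chr11:35121224-35708507, plus strand) encodes the ligand with the highest level here. It was at 2.02, 3.34 and 3.04 FPKM in C57-non-IR hearts, 2.87, 2.95 and 3.96 in C57-IR hearts and 3.44, 3.39 and 2.66 in Slit2-non-IR hearts. In Slit2-IR hearts it was at 6.19, 5.38 and 2.80 FPKM. Replicates 1 and 2 of Slit2-IR were the 2 highest of the 12 libraries, whereas replicate 3 lay within the range of the other groups, so the groups overlapped. The difference was 0.43 for Slit2-IR minus Slit2-non-IR (SE 0.22, 95% interval -0.06 to 0.92, unadjusted p = 0.0817, adjusted p = 0.528, limma). Slit2-IR minus C57-IR was 0.40 (-0.09 to 0.90, adjusted p = 0.9996).

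The size of the Slit3 difference rested on single Slit2-IR libraries. Without replicate 3, Slit2-IR minus Slit2-non-IR was 0.71 and Slit2-IR minus C57-IR 0.68. Replicate 3 was the lowest of its group for Slit3, so leaving it out raises both differences by construction, and no p is given for them. Without replicate 1, the library with the atrial markers, the same differences were 0.25 and 0.22 (unadjusted p = 0.305 and 0.363, limma). Fibroblast markers, summed over 10 genes, were at 1028 to 1089 FPKM in the 3 Slit2-IR libraries, including replicate 3 where Slit3 was low, and at 628 to 1058 FPKM in the other 9. The part of the fibroblast and atrial markers in the Slit3 values was not tested. Slit1 (chr19:41600257-41743665, minus strand), the ligand best known from the nervous system, was at 0.0326 to 0.0683 FPKM over the 12 libraries, on 4 to 7 reads each, which is too few to compare groups.

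**Figure D3:**
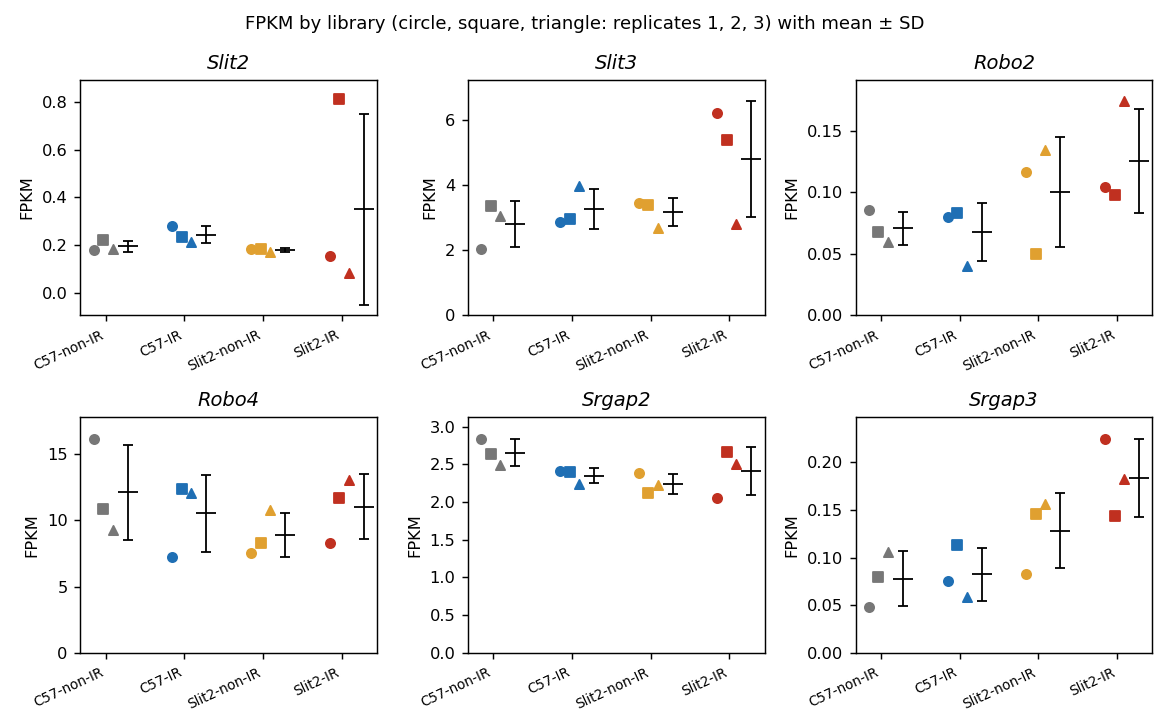
FPKM of 6 members by library (circles, squares and triangles are replicates 1, 2 and 3) in the 4 groups; the bars beside them are mean ± SD, n = 3. Slit2-IR replicate 2 stands alone for Slit2 at 0.813, the 3 Slit2-IR libraries of Srgap3 (0.143 to 0.225) lie above those of C57-IR (0.0587 to 0.113), and Robo4 overlaps in all groups.

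Among the receptors, Robo4 was at 16.2, 10.9 and 9.31 FPKM in C57-non-IR hearts and 7.20, 12.3 and 12.1 in C57-IR hearts. It was at 7.55, 8.32 and 10.8 FPKM in Slit2-non-IR hearts and 8.30, 11.7 and 13.1 in Slit2-IR hearts. The 4 groups overlapped, with means of 12.1 ± 3.61, 10.5 ± 2.90, 8.87 ± 1.67 and 11.04 ± 2.47 FPKM (SD, n = 3). The difference was -0.18 for C57-IR minus C57-non-IR (SE 0.24, 95% interval -0.72 to 0.35) and 0.07 for Slit2-IR minus C57-IR (-0.46 to 0.61). Slit2-non-IR minus C57-non-IR was -0.39 (-0.92 to 0.15, unadjusted p = 0.139, adjusted p = 0.9995, limma), and Slit2-IR minus Slit2-non-IR was 0.28 (-0.26 to 0.81). The IR differences of the 2 genotypes did not differ beyond the error (interaction 0.46, -0.30 to 1.22, unadjusted p = 0.207, limma). With 1 library left out, Slit2-non-IR minus C57-non-IR ranged from -0.55 to -0.18 and the interaction from 0.23 to 0.64. As folds of FPKM + 1 the intervals ran from 0.607 to 1.28 for C57-IR over C57-non-IR and from 0.725 to 1.53 for Slit2-IR over C57-IR. For Slit2-non-IR minus C57-non-IR, 16 of 18 endothelial markers were below 0 (median difference -0.23, none at an adjusted p under 0.05, limma). The median of all tested genes was -0.003. The summed FPKM of these markers was at 467 to 555 in C57-non-IR and 355 to 477 in Slit2-non-IR hearts. For C57-IR minus C57-non-IR, 14 of 18 were below 0 (median -0.16). For Slit2-IR minus Slit2-non-IR the median of the endothelial markers was 0.005 (8 of 18 below 0), and for Slit2-IR minus C57-IR it was -0.05 (10 of 18). For the interaction, 16 of 18 were above 0 (median 0.19, against 0.004 for all tested genes). In Slit2-non-IR minus C57-non-IR, 8 of 9 smooth muscle and pericyte markers were also lower (median difference -0.31, none at an adjusted p under 0.05, limma). Their sums were 262 to 288 FPKM in Slit2-non-IR and 303 to 375 in C57-non-IR hearts. The part of the smooth muscle and pericyte markers in the Robo4 values was not tested. Robo4 is set against the endothelial list below.

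Robo4 varied with the endothelial genes of the same library. In 3 libraries, replicate 1 of every group but C57-non-IR, the mean log2(FPKM + 1) of 18 endothelial markers was at 4.08 to 4.13, apart from 4.47 to 4.66 in the other 9, and those 3 libraries held the 3 lowest Robo4 values. Within the other 9 libraries Pearson's r was 0.825 (exact permutation p = 0.00273, n = 9) and Spearman's coefficient 0.833 (exact permutation p = 0.00827, n = 9), 1 relation being tested. Without the 2 libraries farthest from the median of the endothelial mean r was 0.558 (n = 7). The relabelings ran over libraries of all 4 groups, so group differences enter both p. All values of a library share its scaling. As a description with no test, the 3 genes most like Robo4 over the 12 libraries, among 10190 protein-coding genes of at least 1 FPKM, were Ap2s1 (Pearson 0.946, Spearman 0.930), an adaptor subunit of clathrin-coated vesicles, Tbcb (Pearson 0.922, Spearman 0.923), a tubulin folding cofactor, and Cdh5 (Pearson 0.922, Spearman 0.902), the cadherin of endothelial junctions and one of the 18 markers. Within the 9 libraries with the higher endothelial mean, their Pearson r with Robo4 was 0.957, 0.895 and 0.835.

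Robo4 was then set against the endothelial genes, as its log2(FPKM + 1) minus their mean. The ratio was at -0.54, -1.04 and -1.11 in C57-non-IR hearts, -1.04, -0.92 and -0.95 in C57-IR hearts, -0.98, -1.25 and -0.97 in Slit2-non-IR hearts and -0.91, -0.88 and -0.82 in Slit2-IR hearts. The 3 Slit2-IR libraries lay above the 3 C57-IR libraries by 0.10 in the mean and above the 3 Slit2-non-IR libraries by 0.20, and an exact permutation test gave p = 0.1 for each (2-sided, n = 3 and 3), the smallest p that 3 against 3 can give. The first separation was narrow, from -0.91 to -0.92, and against the median of the same 18 genes Slit2-IR and C57-IR overlapped (difference 0.12, exact permutation p = 0.2, n = 3 and 3). C57-IR minus C57-non-IR was -0.07 (exact permutation p = 0.9, n = 3 and 3) and Slit2-non-IR minus C57-non-IR -0.17 (exact permutation p = 0.6, n = 3 and 3). C57-non-IR replicate 1, with the highest ratio, set the sign of both: without it they were 0.11 and 0.01.

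**Figure D4:**
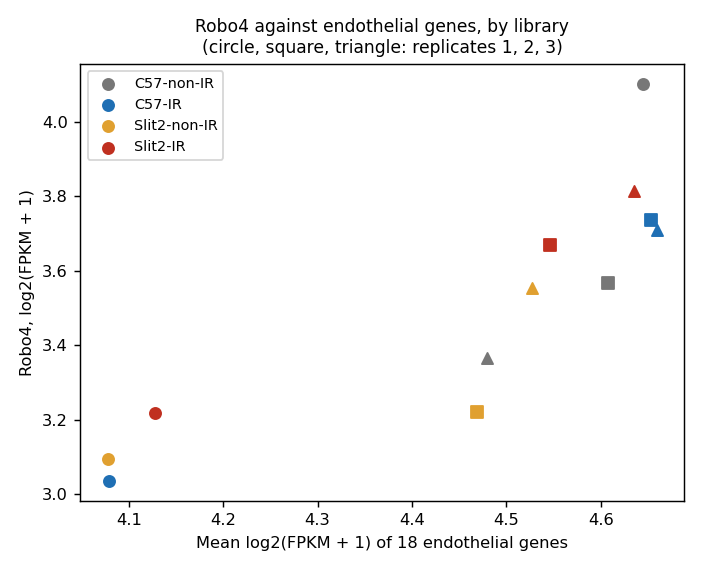
Robo4 (y axis) against the mean of 18 endothelial genes (x axis), both log2(FPKM + 1), 1 point per library, coloured by group, with circles, squares and triangles for replicates 1, 2 and 3. Replicate 1 of every group but C57-non-IR lies at the lower left on both axes, and C57-non-IR replicate 1 lies highest.

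Robo1 (chr16:72663149-73046095, plus strand), a receptor of guided axons that is also found in endothelial cells, was at 0.306 to 0.580 FPKM on 40 to 111 reads. Its 4 differences lay between -0.02 and 0.11, with SEs of 0.08 and unadjusted p of 0.218 to 0.828 (limma), and all groups overlapped. On the recovered reads they lay between -0.07 and 0.34, with SEs of 0.26 to 0.29 and unadjusted p of 0.248 to 0.882 (limma-voom).

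Robo2 (chr16:73892306-74411825, minus strand), a close relative of Robo1, was at 0.0853, 0.0673 and 0.0595 FPKM in C57-non-IR hearts, 0.0798, 0.0829 and 0.0404 in C57-IR hearts and 0.117, 0.0499 and 0.134 in Slit2-non-IR hearts. In Slit2-IR hearts it was at 0.104, 0.0981 and 0.174 FPKM, above all 3 C57-IR libraries. The genotype groups overlapped without IR. Slit2-IR minus C57-IR was 0.08 on the log2(FPKM + 1) scale (95% interval -0.02 to 0.17, adjusted p = 0.9996, limma) and 0.92 on the recovered reads (0.003 to 1.84, unadjusted p = 0.0494, adjusted p = 0.99996, limma-voom). These are 65 reads in the C57-IR group against 138 in the Slit2-IR group. Over both perfusion states, the mean genotype difference was 0.06 (unadjusted p = 0.0925, limma). Permuting genotype within perfusion states gave p = 0.045 (exact permutation test, 2-sided, 400 relabelings, n = 6 and 6), 1 of 10 members so tested and not corrected for that number. Robo3, which has lost high-affinity SLIT binding in mammals, had 3, 3 and 4 reads in the C57-IR libraries and 0 to 2 in the other 9, and 4 libraries held none.

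Among the srGAPs, Srgap3 (also called WRP; chr6:112717971-112947266, minus strand) was at 0.0477, 0.0799 and 0.106 FPKM in C57-non-IR hearts and at 0.0756, 0.113 and 0.0587 in C57-IR hearts. In Slit2-non-IR hearts it was at 0.0832, 0.145 and 0.156 FPKM, and in Slit2-IR hearts at 0.225, 0.143 and 0.182. The 3 Slit2-IR libraries lay above the 3 C57-IR libraries, and the non-IR genotype groups overlapped. Srgap3 and Robo2 were the tested members that did not overlap between Slit2-IR and C57-IR hearts, both higher in Slit2-IR, as 3.03% of all genes tested were. The Srgap3 reads summed to 43 in C57-non-IR, 48 in C57-IR, 89 in Slit2-non-IR and 119 in Slit2-IR.

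Slit2-IR minus C57-IR of Srgap3 was 0.13 on the log2(FPKM + 1) scale (SE 0.04, 95% interval 0.03 to 0.23, unadjusted p = 0.0151, adjusted p = 0.9996, limma). On the recovered reads it was 1.15 (0.35 to 1.95, unadjusted p = 0.00844, adjusted p = 0.99996, limma-voom), or 2.22-fold. Slit2-non-IR minus C57-non-IR was 0.07 (-0.03 to 0.16), and 0.73 on the reads (-0.13 to 1.59). The mean genotype difference over both perfusion states was 0.10 (SE 0.03, unadjusted p = 0.0106, adjusted p = 0.906, limma) and 0.94 on the reads (0.35 to 1.53). The exact permutation test within perfusion states gave p = 0.01 (2-sided, 400 relabelings, n = 6 and 6), again 1 of 10 members and not corrected. Without C57-IR replicate 3 the unadjusted p in IR hearts was 0.0541 and without Slit2-IR replicate 1 it was 0.0593 (limma). Slit2-IR replicate 1 also had the highest sum of atrial markers, 1706 FPKM against 32.1 to 245 in the other 11 libraries. Its sum of Schwann and neuronal markers was the highest too, 10.4 FPKM against 5.35 to 8.82. The part of either marker list in the Srgap3 values was not tested.

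Srgap2 (chr1:131285251-131527352, minus strand), the highest srGAP, was at 2.84, 2.64 and 2.48 FPKM in C57-non-IR hearts, 2.41, 2.40 and 2.24 in C57-IR hearts and 2.38, 2.12 and 2.23 in Slit2-non-IR hearts. In Slit2-IR hearts it was at 2.06, 2.67 and 2.51 FPKM. All 3 C57-non-IR libraries lay above those of C57-IR and of Slit2-non-IR, and Slit2-IR overlapped every group. No overlap with the first group lower was found for 7.01% of all genes in C57-IR versus C57-non-IR and for 4.57% in Slit2-non-IR versus C57-non-IR. The differences were -0.12 (95% interval -0.32 to 0.07, unadjusted p = 0.196) and -0.17 (-0.37 to 0.03, unadjusted p = 0.0824, adjusted p = 0.9995, limma). The most similar genes over the 12 libraries were Nudt14 (Pearson 0.897, Spearman 0.853), a nucleotide sugar hydrolase, Hes6 (Pearson 0.843, Spearman 0.818), a basic helix-loop-helix factor, and Ncoa3 (Pearson 0.822, Spearman 0.741), a nuclear receptor coactivator. For Slit3 they were Micu2 (Pearson 0.871, Spearman 0.580), a regulator of mitochondrial calcium uptake, Pdzrn3 (Pearson 0.833, Spearman 0.552), a ubiquitin ligase, and Ldhd (Pearson 0.825, Spearman 0.629), a D-lactate dehydrogenase. Srgap1 (chr10:121780991-122047315, minus strand) was at 0.200 to 0.472 FPKM on 44 to 96 reads, with differences of -0.05 to 0.02, SEs of 0.08 and unadjusted p of 0.518 to 0.931 (limma). On the recovered reads the differences of Srgap1 lay between -0.28 and 0.13, with SEs of 0.31 to 0.33 and unadjusted p of 0.388 to 0.880 (limma-voom).

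Genes that act with the SLIT and ROBO proteins were counted from 2 lists, chosen with earlier results of these data known. Of 18 co-receptors, ligand-binding partners and crosstalk receptors, 15 were tested. Of the 15, 1 rose at an adjusted p under 0.05 in Slit2-IR versus Slit2-non-IR hearts (0.525% of all genes passed), and none in the other 3 comparisons (0.0394% to 0.459%). Their median differences were 0.12 in C57-IR minus C57-non-IR, where the median of all tested genes was 0.00, 0.10 in Slit2-IR minus Slit2-non-IR (0.01), 0.05 in Slit2-non-IR minus C57-non-IR (-0.00) and 0.04 in Slit2-IR minus C57-IR (-0.00). The gene that rose was Sdc4, a syndecan whose heparan sulfate chains bind secreted ligands. It was at 7.79, 7.88 and 5.83 FPKM in C57-non-IR hearts, 11.6, 19.3 and 16.5 in C57-IR hearts, 5.49, 7.51 and 6.14 in Slit2-non-IR hearts and 16.3, 20.6 and 12.1 in Slit2-IR hearts. All IR libraries lay above all non-IR libraries in both genotypes. The groups did not overlap, in either direction, for 13.8% of all genes in C57-IR versus C57-non-IR and 16.9% in Slit2-IR versus Slit2-non-IR. Sdc4 rose by 1.21 in Slit2-IR minus Slit2-non-IR (SE 0.21, adjusted p = 0.0403, limma; 0.158 without Slit2-IR replicate 1) and differed by 1.02 in C57-IR minus C57-non-IR (SE 0.21, adjusted p = 0.0784, or 0.0259 with a replicate block), and the mean IR difference over both genotypes was 1.12 (SE 0.15, adjusted p = 0.00332, limma).

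The mean IR difference over both genotypes passed for 3.49% of all genes. Flrt3, a transmembrane protein that binds ROBO1, was the other gene of the co-receptor list under the adjusted threshold there. It had 2 to 13 reads in the non-IR libraries and 13 to 22 in the IR libraries. Flrt3 passed the filter on low values through the IR libraries, where it was high, so no p is given and its call is not read as a result. The call held under 9 of 17 alternatives. Of 33 intracellular partners, all 33 were tested and none passed in the 4 comparisons (0.0394% to 0.525% of all genes did). Their medians were 0.07 and 0.06 in the IR comparisons within C57 and Slit2-Tg hearts. In the mean over both genotypes 1 of the 33 passed, where 3.49% of all genes did, so the count is near the background. It was Vasp, an actin-binding protein of the Ena/VASP family that ROBO receptors bind. Vasp was at 15.05 to 17.2 FPKM in C57-non-IR, 17.8 to 21.7 in C57-IR, 12.01 to 15.2 in Slit2-non-IR and 16.8 to 23.5 in Slit2-IR hearts, with a mean IR difference of 0.39 (SE 0.09, adjusted p = 0.0472, limma; up to 0.120 without C57-IR replicate 2). No gene of either list passed in a genotype comparison, where 0.0394% to 0.131% of all genes did.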

How the data were processed

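The values deposited by the authors were FPKM per gene for each of 12 libraries. The submitters' processing notes name HISAT2 and mm10. The annotation release, the counting tool and the use of strand are not given in the sources used here, so overlapping and antisense genes cannot be separated. All values (100%, tolerance 0.01 reads), once multiplied by the gene length given beside them, came in whole steps of 1 read, so reads were recovered. The step sizes matched median-of-ratios size factors. Genes with at least 10 reads, scaled to a median library, in 3 libraries and 15 in total were tested (15240 genes) with limma 3.58.1 with a variance trend on log2(FPKM + 1). Limma-voom on the recovered reads called 4, 6, 32 and 121 genes in Slit2-non-IR versus C57-non-IR, Slit2-IR versus C57-IR, C57-IR versus C57-non-IR and Slit2-IR versus Slit2-non-IR. Exact permutation tests were used for single values. Same-numbered libraries deviated together in all 3 pairs in Slit2-IR versus C57-IR (correlations 0.154 to 0.362) and versus Slit2-non-IR (0.143 to 0.294), where every correlation was over 0.1; elsewhere 1 of the 3 pairs was below 0.1. The labels state 3 independent samples per group. The pairing comes from these correlations alone. Differently numbered libraries were not correlated for comparison, so the pairing is not established. The members and lists were chosen with earlier results of these data known. All members, the list genes with an adjusted p under 0.05 in any contrast and, by correlation, the 3 genes most like each member of at least 1 FPKM were named, with Fos, Egr1, Atf3 and Hspa1b as a label check. Transcript models were from GENCODE M21. The fit was tested on simulated data.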

Additional observations from a re-analysis of the deposited data

How the results depend on the processing

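No member reached an adjusted p under 0.05 under any of the 19 alternatives. The smallest was 0.0785, for Slit3 in the mean IR difference without Slit2-IR replicate 3. That library was the lowest of its group for Slit3, so leaving it out raises this difference by construction. Members at an unadjusted p under 0.05 in Slit2-IR versus C57-IR numbered 2 with no filter beyond 1 read (Srgap3 and Robo3) and 2 with limma-voom (Srgap3 and Robo2), 0 with at least 10 reads in every library, which drops Srgap3, and 0 to 2 with 1 library left out; in C57-IR versus C57-non-IR there was 1 with no filter beyond 1 read (Robo3), and in Slit2-IR versus Slit2-non-IR there were 0 to 1 with 1 library left out. The replicate block changed no member's call (smallest unadjusted p 0.0256 between pairs of groups and 0.0188 in the mean genotype difference, both for Srgap3), and its pairing rests on correlations alone.

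Genes at an adjusted p under 0.05 in Slit2-non-IR versus C57-non-IR numbered 10 with a pseudocount of 0.1, 11 with no filter beyond 1 read, 3 with at least 10 reads in every library, 2 with the replicate block and 1 to 14 with 1 library left out, against 6. In Slit2-IR versus C57-IR they numbered 3 with at least 10 reads in every library, 4 with only the 6 libraries compared and 4 to 12 with 1 library left out, against 7. In C57-IR versus C57-non-IR they numbered 7 with no filter, 9 with only the 6 libraries compared, 174 with the replicate block, 32 with limma-voom and 3 to 254 with 1 library left out, against 70. In Slit2-IR versus Slit2-non-IR they numbered 19 with no filter, 202 with the replicate block, 121 with limma-voom and 4 to 180 with 1 library left out, against 80. The cause was not tested.

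Signs turned where differences were near 0. With limma-voom Slit2 was -0.081 in Slit2-IR minus C57-IR and -0.11 in the mean genotype difference (-0.026 with a pseudocount of 0.1), and Srgap1 was 0.051 in C57-IR minus C57-non-IR. With 1 library left out, Slit2-IR minus C57-IR ranged from -0.15 to 0.22 for Slit2, -0.042 to 0.074 for Robo1, -0.16 to 0.25 for Robo4, -0.11 to 0.034 for Srgap1 and -0.033 to 0.10 for Srgap2. Slit2-IR minus Slit2-non-IR ranged from -0.076 to 0.30 for Slit2, -0.085 to 0.044 for Robo1, -0.00049 to 0.055 for Robo2 and -0.14 to 0.0069 for Srgap1. C57-IR minus C57-non-IR ranged from -0.015 to 0.014 for Robo2, -0.34 to 0.045 for Robo4, -0.073 to 0.047 for Srgap1 and -0.014 to 0.025 for Srgap3. Slit2-non-IR minus C57-non-IR ranged from -0.014 to 0.25 for Slit3 and -0.046 to 0.073 for Srgap1. The mean genotype difference of Slit2 ranged from -0.087 to 0.10, and the mean IR difference of Robo4 (0.05) from -0.032 to 0.16. Robo4 relative to endothelial genes ranged from -0.28 to 0.0088 in Slit2-non-IR minus C57-non-IR and -0.18 to 0.11 in C57-IR minus C57-non-IR, where the median over the markers gave 0.027. Of the list genes, Sdc4 kept an adjusted p under 0.05 in the mean IR difference under all 18 alternatives, but in Slit2-IR minus Slit2-non-IR under 8 of 19 (adjusted p 0.0130 to 0.158). Vasp kept it under 7 of 18 (0.0315 to 0.120).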
